A study of Mus musculus with 14 samples.

Results

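The methylation of 10 imprinted genes that inherit a mark from the oocyte was examined by MBD-seq in 14 mouse cell samples. They were Peg3, Snrpn, Mest, Peg10, Plagl1, Grb10, Kcnq1ot1, Igf2r, Nnat and Impact, and the annotation held 33924 gene names. The genes were chosen by name from what is known of imprinting. The rule used no measured value, but earlier results of these data were known when the choice was made. In MBD-seq, sheared genomic DNA is enriched by a protein domain that binds methylated CpGs and then sequenced, so that a peak of sequence tags marks a methylated stretch that holds CpGs. Of the 1063163 peaks called in the 14 samples, 325 lay in the windows of these genes, that is the gene body with 5 kb on each side, with 15 to 31 peaks per sample. The samples were induced pluripotent stem (iPS) cells of both genotypes (4 Aid+/+ and 4 Aid-/- clones), embryonic stem (ES) cells (3 lines) and mouse embryonic fibroblasts (MEFs, 3 cultures, all Aid+/+). Aid encodes a cytidine deaminase of activated B cells that has been discussed as a DNA demethylating factor. Every iPS and MEF sample carried the Nanog-GFP reporter on a mixed background of C57BL6, DBA and 129S4. The iPS clones were made from MEFs by retroviral reprogramming, selected with puromycin, and taken at passage 6 on gelatin. The MEFs were at passage 3, and MEFs that are Aid-/- were not analysed here. Each ES sample was a line of a strain of its own, namely RF8 (129SV, replicate 1), MG1.19 (129Ola, replicate 2) and B6 ES (C57BL6, replicate 3), without the reporter. All samples were labelled male. No gene expression was measured, and the reads were not separated by parental allele.

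At an imprinted gene of this class, a CpG island is methylated in the growing oocyte, keeps that methylation on the maternal chromosome through the demethylation of the early embryo, and stays unmethylated on the paternal chromosome. The island, called the germline methylated region, usually covers the start of a transcript that is then made from the paternal copy. It is erased only in primordial germ cells, so that fibroblasts and pluripotent cells alike would carry it on the maternal chromosome, although imprints can be lost or gained in culture. Peg3 and Plagl1 encode zinc finger transcription factors, Snrpn a protein of the spliceosome, Mest a member of the hydrolase family, and Peg10 a retrotransposon-derived protein needed in the placenta. Nnat encodes a small membrane proteolipid of neural tissue, and Impact a regulator of translation under amino acid starvation. Kcnq1ot1 is a long non-coding RNA that silences the genes around it on the paternal chromosome. Igf2r, the receptor that removes insulin-like growth factor 2, and Grb10, an adaptor that restrains insulin receptor signalling, are expressed from the maternal copy in many tissues. In Igf2r the germline region is the start of Airn, a non-coding RNA that is made from within the gene, and in Grb10 it is an internal promoter downstream of the main one.

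The CpG islands that served as germline regions were 672 to 1898 bp long and held 29 to 143 CpGs. The sequences of 5 of them are shown because the findings turn on these genes. Snrpn had the fewest CpGs, Peg10, Grb10 and Plagl1 differed between the ES lines, and Igf2r holds another island that is described with it. Each line gives 200 bases of NCBI build 37, 5′ to 3′ on the strand of the transcript that starts there (for Igf2r, the strand of Airn), with every CpG in capitals. The stretch is the one in the island nearest to the median peak summit of the samples that holds no exon of a protein-coding gene.
Snrpn, chr7:67149722-67149921, minus strand: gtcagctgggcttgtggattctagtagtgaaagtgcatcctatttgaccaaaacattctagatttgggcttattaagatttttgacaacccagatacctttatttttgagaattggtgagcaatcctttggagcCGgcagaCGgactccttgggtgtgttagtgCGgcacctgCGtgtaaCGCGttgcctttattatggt
Peg10, chr6:4698209-4698408, plus strand: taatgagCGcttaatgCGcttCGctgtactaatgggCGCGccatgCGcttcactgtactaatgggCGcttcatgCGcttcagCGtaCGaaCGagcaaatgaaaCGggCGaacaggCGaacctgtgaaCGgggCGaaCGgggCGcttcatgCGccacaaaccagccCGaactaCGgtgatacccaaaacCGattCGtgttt
Plagl1, chr10:12810831-12811030, plus strand: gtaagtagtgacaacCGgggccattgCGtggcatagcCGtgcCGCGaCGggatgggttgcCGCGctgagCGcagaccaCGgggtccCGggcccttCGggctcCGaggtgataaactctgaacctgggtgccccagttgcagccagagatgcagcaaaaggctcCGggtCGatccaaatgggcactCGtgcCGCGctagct
Grb10, chr11:11926328-11926527, minus strand: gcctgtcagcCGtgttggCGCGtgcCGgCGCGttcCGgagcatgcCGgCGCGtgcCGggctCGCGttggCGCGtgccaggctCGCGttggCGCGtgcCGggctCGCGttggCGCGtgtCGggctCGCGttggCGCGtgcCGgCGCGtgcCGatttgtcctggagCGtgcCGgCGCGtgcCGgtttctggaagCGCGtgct
Igf2r, chr17:12935079-12935278, plus strand: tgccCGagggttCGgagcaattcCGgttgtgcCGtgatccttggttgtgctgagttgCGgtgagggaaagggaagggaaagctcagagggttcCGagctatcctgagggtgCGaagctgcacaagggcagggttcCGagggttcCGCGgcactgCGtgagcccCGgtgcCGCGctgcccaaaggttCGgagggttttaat
The stretch of Snrpn held 6 CpGs in 200 bases, that of Igf2r 15, that of Plagl1 18, that of Peg10 23 and that of Grb10 40. In Grb10 a short unit with several CpGs is repeated along most of the stretch.

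The Peg3 island spanned chr7:6681852-6683248 over the first exon and untranslated region of the gene, and the Snrpn island spanned chr7:67149547-67150218 over an internal first exon. The Mest island was at chr6:30687592-30688564 and the Plagl1 island at chr10:12810184-12811209, both over first exons. The Peg10 island, chr6:4696843-4698740, covered the starts of both Peg10 and its neighbour Sgce, so that the values given for Peg10 are also those of Sgce. The Grb10 island was at chr11:11925414-11926726 over an exon inside the gene. The Kcnq1ot1 island was at chr7:150480863-150482599 in an intron of Kcnq1. Kcnq1ot1 is not a gene of the annotation used, its start was placed by matching its RefSeq promoter sequence to build 37, and its window was 5 kb on each side of that start. The Igf2r island was at chr17:12934128-12935543 in an exon of Airn, and the Nnat island at chr2:157385455-157386413 over the first exon of Nnat and over part of an exon of Blcap.

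The hexamer TGCCGC, known as the binding motif of ZFP57, a zinc finger protein that protects imprints in the early embryo, was counted on both strands in 1000 bases centred on each island. All 10 windows held it, and 9 of 10 held at least 2 copies, with a median of 6. Mest had the most with 10 copies, Snrpn had 7, and Peg10 had 1, the fewest. Of the 15624 CpG islands of the genome in the same range of length, 49.8% held the hexamer in such a window and 19.3% held at least 2 copies. These matches are letters in a window and describe no binding.

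Depth and peak number differed between the groups. The tags left after the filter on duplicates numbered 9.634 to 15.916 M in Aid+/+ and 6.654 to 11.458 M in Aid-/- iPS clones, 10.224 to 15.5 M in ES lines and 17.513 to 19.603 M in MEFs, where M is 1000000 tags and RPM, used in what follows, is the number of tags in a peak per 1000000 filtered tags of its sample. Of the filtered tags, 49.6% to 62.5% lay in peaks in the iPS clones, 19.2% to 27.4% in the MEFs and 16.7% to 54.5% in the ES lines. The share of 16.7% was that of ES replicate 2, which also had 33694 peaks, the fewest of the 14 samples. The headers of the peak lists fall into 4 processing runs by software version and run name, and no run held both Aid+/+ iPS cells and ES cells or MEFs, so that run and cell type cannot be told apart. As a check on the labels by methylation, a peak at the Nanog start was called in 2 of 3 MEFs and in 0 of 8 iPS and 0 of 3 ES samples. At the Pou5f1 start a peak was called in 8 of 8 iPS clones and in neither ES cells nor MEFs. The Pou5f1 promoter is known to be unmethylated in pluripotent cells and methylated in fibroblasts. By pyrosequencing, the paper found it hypomethylated in iPS cells of both genotypes. The window counted here was the annotated start with 1 kb on each side, which reaches past the promoter into the gene. The iPS clones had also received this gene by retrovirus, and whether tags of those copies fell in the window was not tested. The calls in iPS cells and MEFs differed from the known pattern, but for these reasons they cannot check the cell types. No peak can check the deletion of Aid itself. The iPS clones, ES lines and MEF cultures were separate by their labels. No pair of samples in a group shared more than 0.00113% of their peaks exactly, which bears only on copied peak lists.

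The germline methylated region carried a peak at all 10 genes in 8 of 8 iPS clones, whether Aid+/+ or Aid-/-, in 3 of 3 MEFs and in ES replicates 1 and 3. ES replicate 2 had peaks at 8 of 10 and none at Peg10 and Grb10. Among islands of the same length range, 15.1% had a peak in all 14 samples, against 8 of the 10 germline regions. The calls were the same with a stricter peak p-value of 1e-10, with an overlap of at least 50% of the region or peak, and with the island extended by 1 kb. With the same number of peaks taken from every sample, Aid-/- iPS replicate 3 lost the calls at Mest and Plagl1, so that 8 regions were called in every Aid-/- clone.

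**Figure D1:**
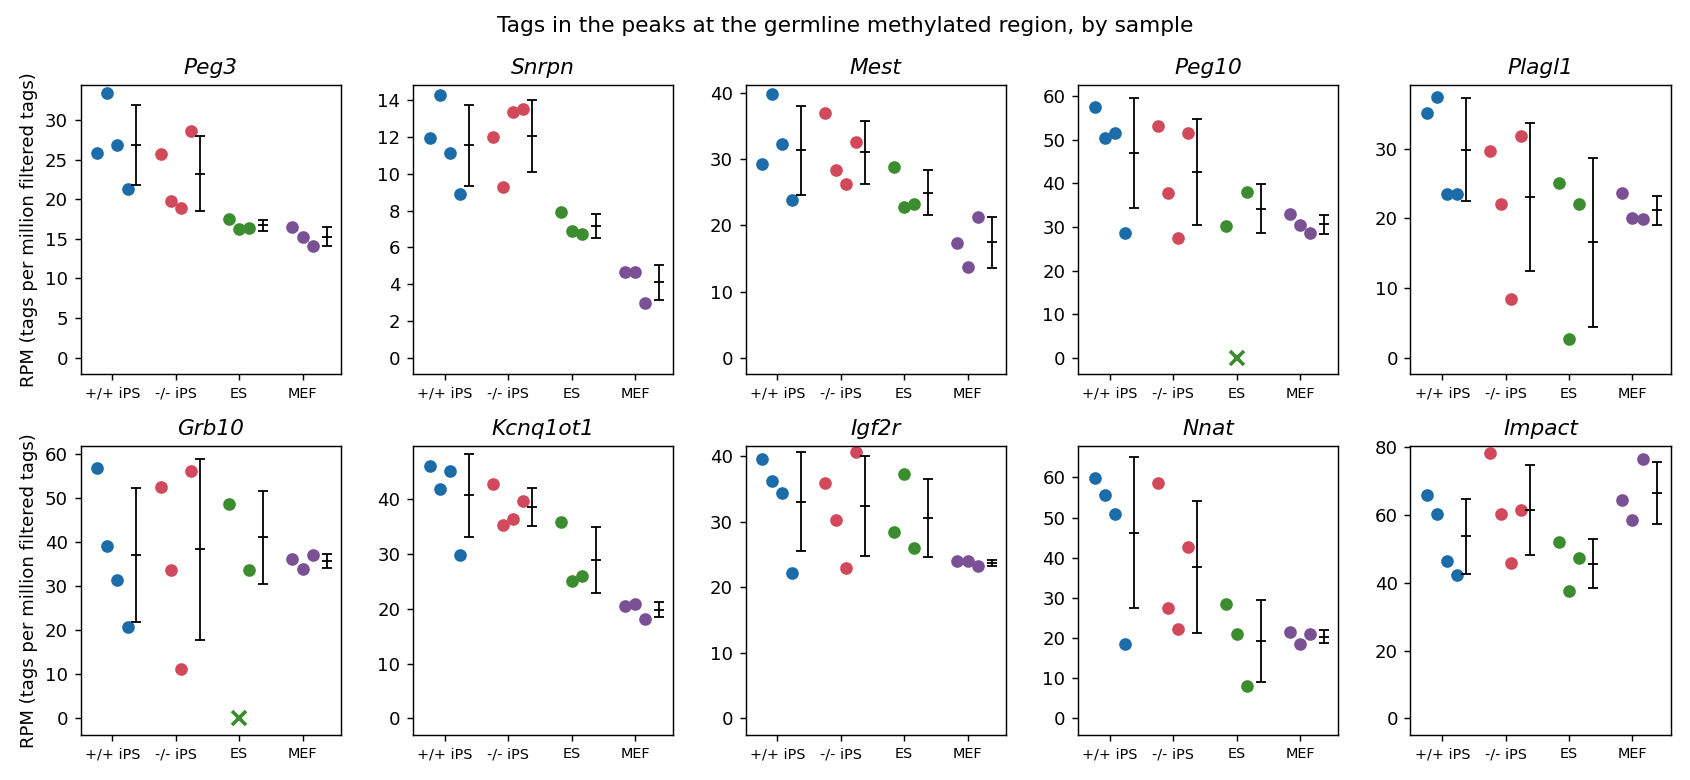
RPM, tags per 1000000 filtered tags (y axis), in the peaks at the germline region of each gene, with 1 point per sample in the 4 groups (x axis), the mean and SD of the samples with a peak in black, and a cross at 0 for a sample without one. Only ES replicate 2 has crosses, at Peg10 and Grb10, and the Aid+/+ and Aid-/- iPS points overlap in every panel.

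Snrpn, which has the shortest island and the lowest density of CpGs (4.32 per 100 bp), gave the lowest mean tag level per kb of the 10 genes in each of the 4 groups. It held 190, 166, 142 and 86 tags in the 4 Aid+/+ iPS clones, 128, 92, 89 and 155 in the Aid-/- clones, 81, 102 and 104 in the ES lines and 91, 82 and 54 in the MEFs. In RPM per kb of peak this was 8.78 ± 1.73 (SD, n = 4) in Aid+/+ iPS cells and 4.85 ± 0.671 (SD, n = 3) in MEFs. Its fold enrichment over the local background was by contrast the highest of the 10, at 22.2 ± 7.04 (SD, n = 4) in Aid+/+ iPS cells.

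Impact gave the most tags in 13 of 14 samples, with Peg10 ahead in Aid+/+ iPS replicate 3. In RPM per kb, the order in Aid+/+ iPS cells ran from Snrpn over Peg3 (12.6 ± 3.43) and Mest (14.6 ± 6.82) to Plagl1 (18.0 ± 7.74), Igf2r (19.5 ± 5.63), Grb10 (19.7 ± 7.13), Peg10 (21.4 ± 5.42), Kcnq1ot1 (22.0 ± 4.83), Impact (26.2 ± 5.90) and Nnat (30.4 ± 12.3), each a mean with its SD over 4 clones. From Peg3 upwards, each neighbour in this order differed from the next by less than the SD of either. In MEFs the order ran from Snrpn over Peg3 (8.95 ± 1.32), Kcnq1ot1 (10.4 ± 1.2), Mest (12.9 ± 2.07), Igf2r (13.4 ± 0.774), Nnat (13.5 ± 2.70), Peg10 (15.6 ± 2.39), Plagl1 (15.9 ± 3.22) and Grb10 (19.1 ± 0.611) to Impact (33.2 ± 7.06), each over 3 cultures. Impact thus stood apart from its neighbour by more than the SD in MEFs and not in Aid+/+ iPS cells.

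Across the 10 genes, the group mean of RPM per kb rose with the density of CpGs in the island, with a Spearman rho of 0.43 (Aid+/+ iPS), 0.40 (Aid-/- iPS), 0.63 (ES) and 0.94 (MEF). The fold enrichment ran the other way, with a rho of -0.53, -0.49, -0.92 and -0.81. These are descriptions over 10 genes that share libraries and depth, and the groups share the same islands.

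At Mest the peak was not of the same shape in all clones. Fold enrichment at Mest was 12.6, 6.86, 8.45 and 4.81 in the Aid+/+ iPS clones and 10.6, 9.07, 6.32 and 11.6 in the Aid-/- clones, against 16.1, 15.8 and 17.8 in the MEFs. In Aid+/+ iPS replicates 2, 3 and 4 and Aid-/- iPS replicate 3, the summit lay at -799, -826, -899 and -794 bp from the start of transcription, that is upstream of it, over a smaller island of 32 CpGs, chr6:30686773-30687497. In the other 10 samples the summit was 174 to 230 bp downstream of the start. That island carried a peak in 13 of 14 samples, and 2 further islands upstream in 12 and 9. At Snrpn the summit stayed within -6 to 63 bp of the start in all 14 samples.

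The ES lines held unequal numbers of tags at several genes. At Peg10, ES replicates 1 and 3 held 309 and 591 tags (30.2 and 38.1 RPM) and ES replicate 2 had no peak. At Grb10 the same lines held 496 and 521 tags (48.5 and 33.6 RPM) and ES replicate 2 again had no peak. At Plagl1, the zinc finger gene, ES replicate 2 had a peak of 39 tags (2.63 RPM) against 256 and 341 tags (25.0 and 22.0 RPM) in the other lines. That peak covered 77.8% of the island with a fold enrichment of 10.9, and its tag number was at percentile 56.8 of all peaks of that sample. The other 7 genes held 102 to 560 tags in ES replicate 2. There Igf2r had 554 tags (37.3 RPM), more than the 28.4 and 25.9 RPM of the other lines, and Impact had 560 (37.7 RPM). Nnat was instead lowest in ES replicate 3, with 127 tags (8.19 RPM) against 28.6 and 21.1 RPM.

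Away from the germline island, ES replicate 2 had 3 peaks of 16, 29 and 16 tags in the 3′ exons of Peg10, and 1 peak of 21 tags in another exon of Grb10. Of the islands of like length that held a peak in the other 13 samples, 17.6% had none in ES replicate 2, so that 2 of 10 germline regions is close to the share of such islands in that sample. Its low share of tags in peaks goes with these missing calls, and its part in them was not tested. The smallest peak that was called in this sample had 13 tags. Among other maternally methylated islands, Gnas at the extra-large transcript, Inpp5f, Zrsr1 and Nap1l5 had peaks in all 14 samples, and Mcts2 in 13, with ES replicate 2 the exception. By contrast, Gnas at exon 1A had a peak in 6 of the 14 samples and Slc38a4 in 3, the MEFs. ES replicate 2 had no peak at either. In ES replicate 2, Inpp5f had 68 tags and Nap1l5 29 (4.58 and 1.95 RPM), whereas Gnas at the extra-large transcript had 1155.

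**Figure D2:**
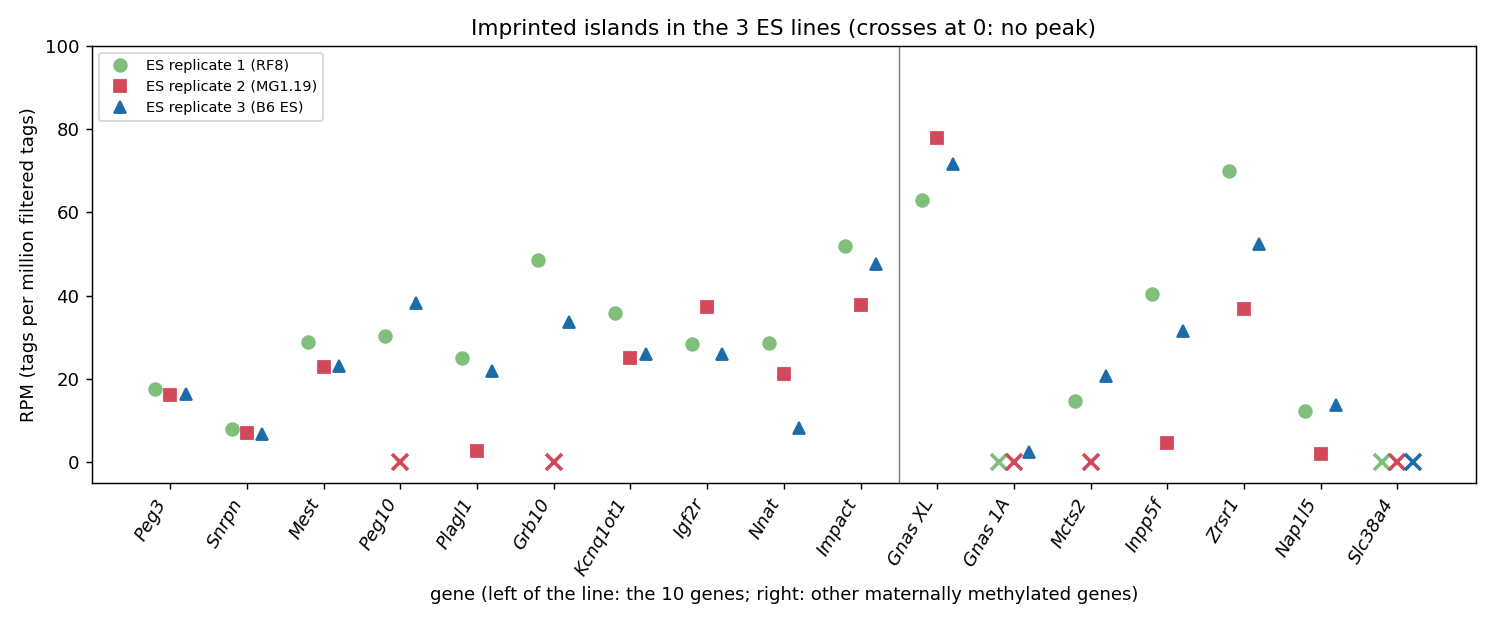
RPM, tags per 1000000 filtered tags (y axis), in the peaks at the germline islands of the 10 genes (left of the line) and of other maternally methylated genes (right of it) in the 3 ES lines, with crosses at 0 where a line had no peak. ES replicate 2 alone has no peak at Peg10, Grb10 and Mcts2, and it has 2.63 RPM at Plagl1 and 37.3 at Igf2r. ES replicates 1 and 2 have no peak at Gnas exon 1A, and no line has one at Slc38a4.

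ES cells were compared with Aid+/+ iPS cells to set the iPS clones against pluripotent cells that were never reprogrammed. The edgeR quasi-likelihood test was made on merged regions with a peak in every sample compared, so that Peg10 and Grb10 left the test. None of the 8 germline regions tested differed, with log2 changes in ES cells from -0.41 at Nnat to 0.75 at Igf2r and a median of 0.19. At Igf2r the standard error was 0.36 and the adjusted p was 0.515. In this comparison 0.0165% of the 24299 regions tested were called, and 0 germline regions had an unadjusted p under 0.05. With ES replicate 2 entered at 0 tags, the log2 change was -0.69 (SE 1.14, adjusted p = 0.931, edgeR) at Peg10 and -0.03 (SE 1.20, adjusted p = 0.996) at Grb10. Without ES replicate 2 all 10 regions were tested and none was called, with 0.60 (SE 0.46) at Grb10 and -0.05 (SE 0.39) at Peg10. The direction depended on the scaling, since 6 of 8 were positive in the test above and 0 of 8 with the filtered tags as library size, where the median over all regions was -0.68. No region of the gene windows had a peak in all samples of one group and in no sample of the other, a pattern that held for 0.0216% of merged regions with the peak in ES cells and 0.842% with the peak in iPS cells.

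MEFs, the cell type from which the clones were made, kept all 10 germline peaks, and 6 of the 10 regions were higher in MEFs than in Aid+/+ iPS cells once tags were scaled to the regions tested. The 6 were Impact, Grb10, Igf2r, Plagl1, Peg10 and Peg3, and none was called lower. In the same fit 23.7% of the 23412 regions tested were called higher and 19.5% lower (43.2% in either direction). The median log2 change was 0.57 over the 10 regions and -0.05 over all regions. This direction depends on the scaling. In RPM the levels were lower in every MEF than in every Aid+/+ iPS clone at Mest, Peg3, Snrpn and Kcnq1ot1, 4 of the 10, a pattern seen at 76.1% of all regions tested, and the MEFs were above every iPS clone at none.

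Impact had the largest log2 change of the 10 in the fit scaled to the tested regions. Its island, on chromosome 18 from 13131588 to 13133154 in an intron near the start of the gene, held 1262, 1027 and 1396 tags in the MEFs and 1048, 702, 594 and 408 in the Aid+/+ iPS clones. In RPM the values were 64.4, 58.6 and 76.7 in MEFs and 65.8, 60.4, 46.6 and 42.4 in iPS clones, so that the groups overlapped on that scale. Relative to the other tested regions the tags were higher by a log2 change of 1.63 (SE 0.23, adjusted p = 0.000117, edgeR quasi-likelihood test with Benjamini-Hochberg adjustment).

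Grb10 held 709, 594 and 676 tags in MEFs and 903, 455, 401 and 199 in the Aid+/+ iPS clones. In RPM these were 36.2, 33.9 and 37.1 against 56.7, 39.1, 31.4 and 20.7, with the MEFs inside the spread of the clones. The log2 change relative to the tested regions was 1.25 (SE 0.27, adjusted p = 0.00290).

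Igf2r held 471, 420 and 422 tags in MEFs (23.2 to 24.0 RPM) and 629, 421, 438 and 213 in the clones (22.1 to 39.5 RPM), with a log2 change of 0.82 (SE 0.19, adjusted p = 0.00531). Plagl1 changed by 0.73 (SE 0.18, adjusted p = 0.00695) and Peg10 by 0.67 (SE 0.21, adjusted p = 0.0189). Peg3 was nearest to the threshold with 0.47 (SE 0.17, adjusted p = 0.0402). Its call was lost without Aid+/+ iPS replicate 3 or 4 and without MEF replicate 1 or 3. Over the 7 fits without 1 sample its log2 change was between 0.40 and 0.54. The call of Peg10 was lost without MEF replicate 3. Both calls were also lost with 0 tags entered for missing peaks.

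The other 4 regions did not pass the test. Mest had a log2 change of 0.46 (adjusted p = 0.132), Kcnq1ot1 0.25 (adjusted p = 0.262), Nnat 0.12 (adjusted p = 0.759) and Snrpn -0.24 (adjusted p = 0.320). Mest was called without MEF replicate 2, with 0.70 (adjusted p = 0.0244), and was also called higher with peak length as an offset.

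With the filtered tags of each sample as its library size, the median over all regions was -1.30, and 9 of the 10 germline regions lay above that median. On that scale 8 regions were called, all lower in MEFs, while Impact at 0.31 and Grb10 at -0.054 were not called. Over all regions 78.9% were called lower on that scale. The split over all regions moved from 5548 higher and 4557 lower to 1351 higher and 18464 lower. Fold enrichment, compared with limma, gave positive changes in MEFs at all 10 genes, while the median over all regions was -0.26. The 3 called were Mest at 1.10, Kcnq1ot1 at 0.85 and Plagl1, all higher. Impact, Grb10, Igf2r, Peg10 and Peg3 were not called on fold enrichment. At Mest the summit lay upstream of the start in Aid+/+ iPS replicates 2, 3 and 4 and downstream in the MEFs. The fold enrichments compared there were thus not of the same place. In that fit 5.4% of all regions were called higher and 32.8% in either direction.

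**Figure D3:**
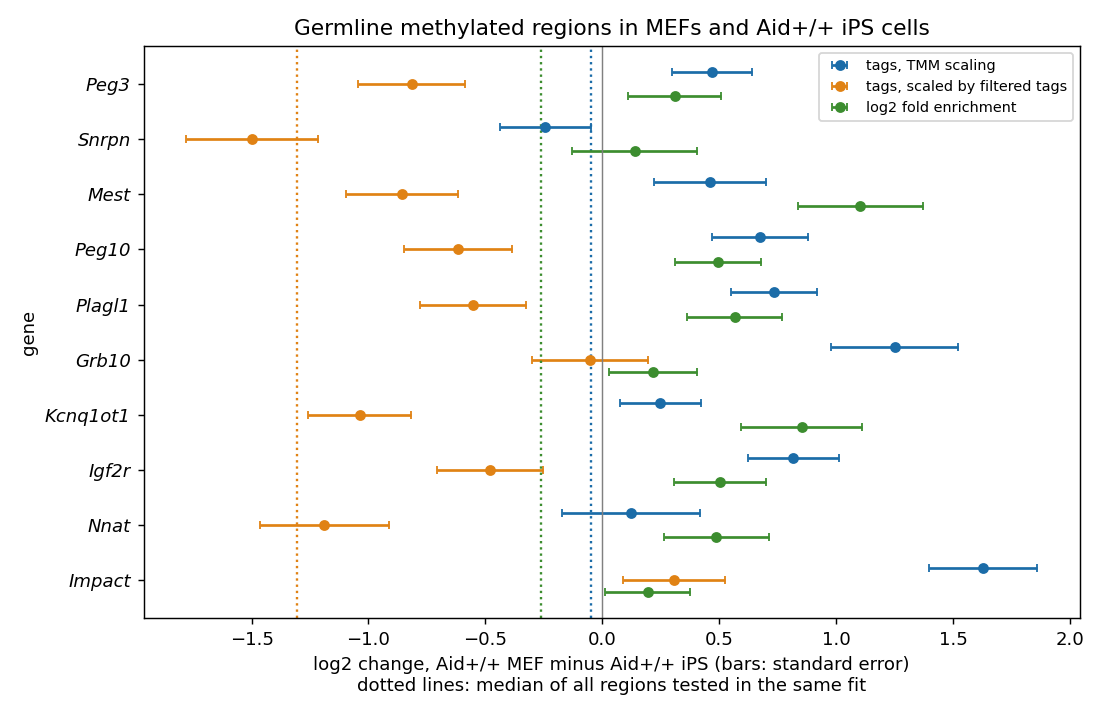
Log2 change of each germline region in Aid+/+ MEFs relative to Aid+/+ iPS cells (x axis; points with the standard error) for the 10 genes (y axis) under tag counts with TMM scaling, tag counts scaled by filtered tags, and log2 fold enrichment, with dotted lines at the median of all regions tested. The scaled tag counts move from a median of 0.57 to mostly below 0 with filtered tags, while 9 of 10 genes lie to the right of the dotted line of their fit in both.

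Aid-/- iPS cells were compared with Aid+/+ iPS cells to ask whether loss of Aid leaves methylation changed after reprogramming. At the germline regions no difference between the genotypes was found. Of the 10 regions, 4 were higher and 6 lower in Aid-/- iPS cells, with log2 changes from -0.30 (SE 0.32) at Plagl1 to 0.25 (SE 0.28) at Impact and a median of -0.05. The adjusted p was 1.00 for each (edgeR quasi-likelihood test), 0 of 10 had an unadjusted p under 0.05, and DESeq2 called 0 as well. Over the genome 0.00196% of the 50901 regions tested were called. The standard errors were 0.20 to 0.44, so that changes of that size were not detectable, and the genotypes are not thereby shown to be alike.

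The spread between clones was larger than the difference between genotypes. At Grb10 the Aid-/- clones held 559, 333, 75 and 642 tags and the Aid+/+ clones 903, 455, 401 and 199. In RPM this was 52.4, 33.7, 11.3 and 56.0 against 56.7, 39.1, 31.4 and 20.7, with a log2 change of 0.12 (SE 0.44). Aid-/- iPS replicate 3 was in RPM the lowest of the 8 iPS clones at 4 genes, with 11.3 at Grb10, 18.9 at Peg3, 27.5 at Peg10 and 8.42 at Plagl1. At Peg3 and Peg10 the next lowest clones were close, with 19.7 and 28.7 RPM. At Plagl1 it had 56 tags against 218 to 365 in the other Aid-/- clones and 226 to 558 in the Aid+/+ clones. It had the fewest filtered tags of the 14 samples (6.654 M), but the most tags of the Aid-/- clones before the filter (31.282 M). It was also the only iPS clone of processing run C, and its Plagl1 peak was at percentile 77.0 of its own peaks. At the other 6 genes the lowest of the 8 was Aid+/+ iPS replicate 4.

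Nnat varied as much within a genotype. It held 952, 647, 650 and 179 tags in the Aid+/+ clones and 626, 271, 148 and 490 in the Aid-/- clones. Aid+/+ iPS replicate 4 had 18.6 RPM and the other Aid+/+ clones 51.0 to 59.8, while the Aid-/- clones had 22.2 to 58.7.

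The direction of the differences changed with the clones set against each other. With all clones, 3 genes were higher and 7 lower in Aid-/- cells in RPM. Within clone series 979, the only series with both genotypes (2 clones each), 9 were higher and 1 lower, with log2 differences of -0.09 to 0.72. Within processing run A (3 Aid-/- clones and 1 Aid+/+ clone), 2 were higher and 8 lower, from -0.48 to 0.16. In series 979 the Aid+/+ clones were of run B and the Aid-/- clones of run A, and there genotype and run cannot be told apart. In a fit with the clone series as a block, all 10 regions were positive, from 0.08 at Peg3 to 0.88 at Grb10 (SE 0.59, adjusted p = 0.825), and none was called. Impact had the lowest adjusted p in that fit, with 0.81 (SE 0.35, adjusted p = 0.720), and 1 of the 10 had an unadjusted p under 0.05. Leaving out 1 clone in turn gave 1 to 8 regions higher in Aid-/- cells and 0 called, and 8 were higher both without Aid-/- iPS replicate 3 and without Aid+/+ iPS replicate 1.

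**Figure D4:**
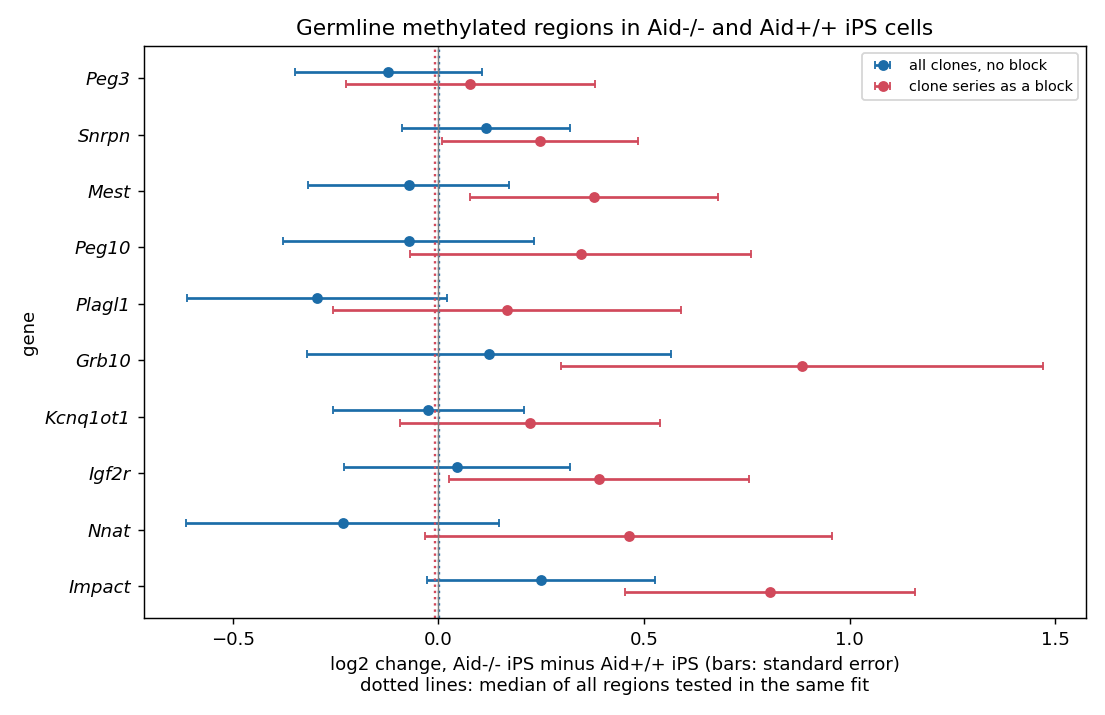
Log2 change of each germline region in Aid-/- relative to Aid+/+ iPS cells (x axis; points with the standard error) for the 10 genes (y axis), with all clones and with the clone series as a block, and dotted lines at the median of all regions tested. Without the block the points lie between -0.30 and 0.25, and with the block they lie between 0.08 and 0.88. With the block the genotype term rests on series 979, with 2 clones of each genotype, where genotype and run cannot be told apart.

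Outside the germline regions, most peaks in the gene windows held fewer tags than the germline peaks. There were 140 peaks at the germline regions with a median of 366 tags, 133 in exons with a median of 64, 42 in introns with a median of 23 and 10 in the flanks with a median of 32.5. Peg3 was an exception, with a median of 270 tags in 33 peaks over its exons and 261.5 in 14 peaks at its germline region. In the Snrpn and Kcnq1ot1 windows the germline peak was the only one in all 14 samples. The Kcnq1ot1 window, however, was only 5 kb on each side of its start and left out the gene body. The number of peaks outside the germline regions was 12 to 21 in Aid+/+ and 11 to 18 in Aid-/- iPS clones, 7 to 20 in ES lines and 5 to 8 in MEFs. These numbers move with the total number of peaks of the sample, and that part was not tested.

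The island at the start of Igf2r itself, chr17:12961857-12963021, with 115 CpGs in 1165 bp, was the only region of the 39 in the windows with a peak in all MEFs and in no Aid+/+ iPS clone. Over the genome 1.45% of merged regions had this pattern, and 13.1% had the reverse, which no window region had. The MEFs held 325, 218 and 325 tags there (16.6, 12.4 and 17.8 RPM), with fold enrichments of 18.28, 18.1 and 19.03. ES replicates 1 and 3 had 36 and 57 tags, Aid-/- iPS replicate 4 had 15, and the other 8 samples had no peak. Fisher's exact test of presence in MEFs against Aid+/+ iPS cells gave p = 0.0286, the smallest that 3 against 4 samples allow, and an adjusted p of 0.197. In somatic tissues this promoter is known to be methylated on the paternal chromosome, which is the copy that Airn silences. This island was singled out after the values were seen.

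**Figure D5:**
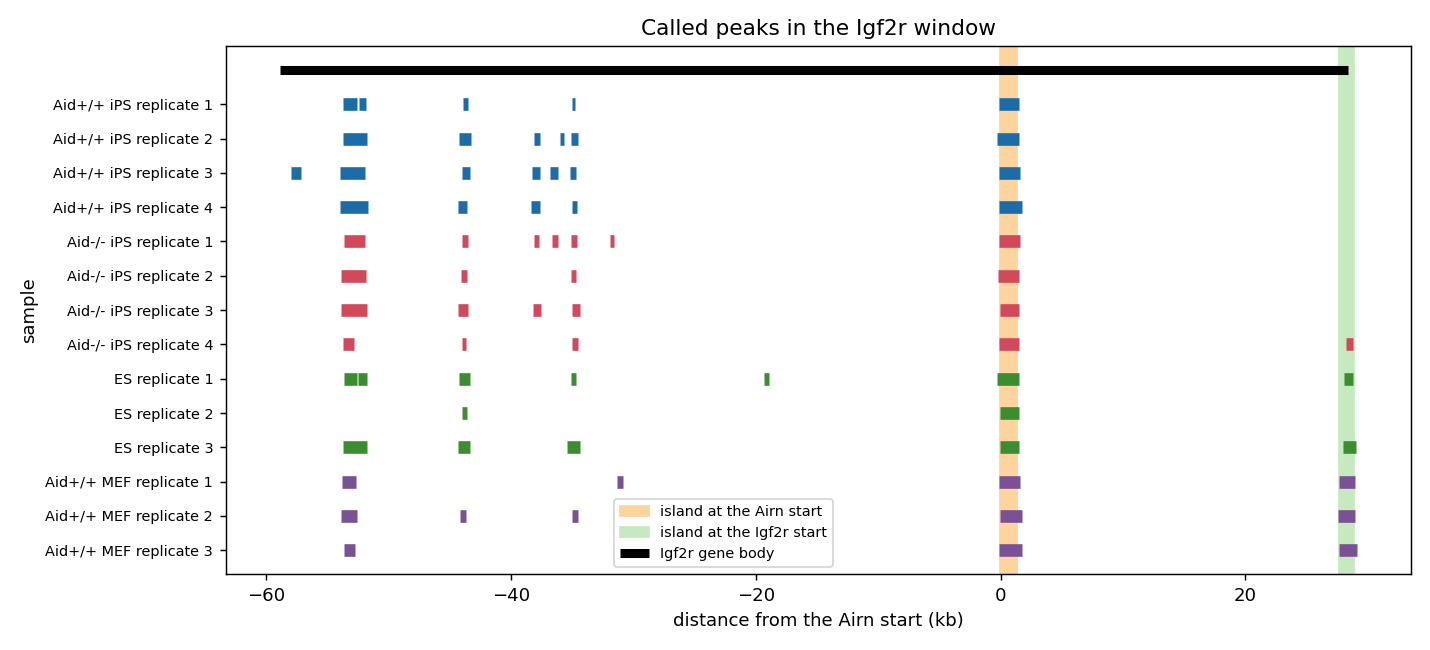
Peaks called in the Igf2r window in each of the 14 samples (rows), by distance in kb from the start of Airn (x axis), with the gene body in black and the islands at the starts of Airn and Igf2r shaded. A peak stands at the start of Airn in all 14 samples, and at the start of Igf2r in the 3 MEFs, 2 ES lines and 1 Aid-/- clone.

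Other large islands in the windows had few peaks or none. The island at the main promoter of Grb10, chr11:11936363-11938161, held 217 CpGs, more than the germline island of the same gene, and had a peak in 1 sample only, ES replicate 3, with 18 tags. The island downstream of Nnat, chr2:157391321-157392585 with 80 CpGs, had no peak in any sample. Of the 20 islands in the windows apart from the germline regions, 8 had no peak in any sample and 4 had a peak in all 14. The 4 were 2 islands in the 3′ exons of Peg10, 1 in the last exon of Peg3, and 1 directly beside the germline island of Impact. Over the genome 13.7% of 73831 islands had a peak in all 14 samples, and the share with none in any sample was not computed.

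In the edgeR fits at regions with a peak in every sample, with TMM scaling, no length offset and no sample left out, no window region outside the germline regions was called between groups. Between genotypes no window region had a peak in all clones of one genotype and in none of the other, against 0.0373% of merged regions with the peak in Aid-/- cells and 0.177% with the peak in Aid+/+ cells. The largest changes in tags between genotypes were -0.26 (SE 0.34) in an intron of Igf2r, 0.22 (SE 0.23) in an exon of Grb10 and -0.17 (SE 0.20) in an intron 5′ of the Mest island, each with an adjusted p of 1.00. In MEFs they were -0.74 (SE 0.29, adjusted p = 0.0523) over 3′ exons of Igf2r, -0.52 (SE 0.23, adjusted p = 0.0835) over the 3′ exons of Peg10 and 0.45 (SE 0.18, adjusted p = 0.0580) in the last exon of Peg3. The Igf2r region, chr17:12880196-12882454, held 182, 308, 288 and 287 tags in the Aid+/+ iPS clones and 117, 132 and 66 in the MEFs, with no overlap of the groups. The Peg10 region, chr6:4704067-4706329, held 292, 323, 444 and 319 tags in the clones and 180, 190 and 96 in the MEFs, likewise without overlap. In RPM both regions had every MEF below every Aid+/+ iPS clone, as did 76.1% of all regions tested. The Igf2r region was called with DESeq2 (adjusted p = 0.0369), with filtered tags as library size (-1.98), and without Aid+/+ iPS replicate 1 (-0.97), and with peak length as an offset its change was 0.13. The Peg10 region was called with filtered tags (-1.75) and without Aid+/+ iPS replicate 1 (-0.68). Of all regions, 43.2% were called with DESeq2, 51.8% without Aid+/+ iPS replicate 1, and 78.9% were called lower with filtered tags. The last exon of Peg3 was called higher with peak length as an offset (1.56), with limma on fold enrichment (0.93), with 0 tags entered for missing peaks (0.54) and without MEF replicate 2 (0.57), whereas with filtered tags the change was -0.85. In ES cells the largest changes were -0.24 (SE 0.37) over the 3′ exons of Peg10, 0.13 (SE 0.43) in an exon of Igf2r and -0.11 (SE 0.24) in the last exon of Peg3.

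Islands of related genes were examined for context, among them the maternally methylated ones of Slc38a4 and of Gnas at exon 1A. Slc38a4, an amino acid transporter gene, had a peak in 3 of 3 MEFs, with 154, 141 and 85 tags, and in 0 of 11 iPS and ES samples. Gnas at exon 1A had a peak in 3 of 3 MEFs, with 354, 673 and 772 tags, and in 1 sample each of the other 3 groups, with 31, 15 and 39 tags. Of merged regions, 1.45% had a peak in every MEF and in no Aid+/+ iPS clone, as Slc38a4 did. The share over all 11 iPS and ES samples, and that for the pattern of Gnas at exon 1A, were not computed. The windows of H19, Rasgrf1 and Meg3, genes under paternal germline methylation, held peaks in all 14 samples, as did 22.6% of the windows of all annotated genes. Their paternal germline regions were not located, so that these peaks are no measure of them. Of 5 genes whose products keep imprints (Zfp57, Trim28, Dppa3, Dnmt1 and Dnmt3l), 3 had a peak in their window in every Aid+/+ iPS clone, 2 in every Aid-/- clone, 2 in every ES line and 2 in every MEF. Over all annotated genes the shares were 52.6%, 51%, 28.5% and 36.4%. Those peaks describe methylation in the windows of these genes and not their expression.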

How the data were processed

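MBD-seq was performed on 14 samples of 4 groups, each assigned from its title; replicate numbers follow the order of the samples and pair none. Per the labels the authors mapped tags to mm9 (NCBI build 37) with BWA 0.5.9rc1 after CASAVA 1.8.1. Per the file headers, peaks were called in each sample on its own by MACS (version 1.4.1 or 1.4.0rc2) without a control, with at most 2 tags per position. The deposited tag counts of peaks, the fold enrichment (a ratio, by the authors' software, over the local background) and the p-value score (10 times the −log10 of the p-value, deposited as MACS wrote it) were used as they stand. Coordinates are 1-based.

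CpG islands were found in the build 37 sequence (GC at least 50%, observed to expected CpG at least 0.6, length at least 200 bp). The germline region of a gene was the island at the start of its paternally expressed transcript, searched within 1 kb, and for Grb10 the island within the gene. Genes came from GENCODE vM1. All 10 genes were described whatever their values, together with the 3 other window regions of largest change per comparison. RPM is tags in peaks per 1000000 filtered tags, and per kb refers to peak length.

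Peaks were merged across the samples compared with an overlap of 1 bp. Tag counts were tested at regions with a peak in every sample by the edgeR 4.0.16 quasi-likelihood test (R 4.3.3, TMM) with Benjamini-Hochberg adjustment over all regions, called under 0.05, in a fit of only the groups compared. Peak presence was tested by the two-sided Fisher's exact test, where 4 against 4 samples can give no p under 0.0286. The fit was tested on simulated counts. Alternatives were DESeq2 1.42.0, limma 3.58.1 on log2 fold enrichment with no pseudocount (computed here from the deposited ratio), other library sizes, filters and windows, a clone series block, and leaving out each sample. The members and lists were chosen with earlier results of these data known. A region without a peak has no tag count, so that low methylation below the calling threshold is unknown, and p-values measure the spread between the clones, lines or cultures of these groups. The Aid+/+ clones were of clone series 967 and 979 and the Aid-/- clones of 979 and 981. Except in the fit with a block, clones of the same series were treated as separate replicates.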

Additional observations from a re-analysis of the deposited data

Results flagged for a closer look

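Of 40 sets of 4 clones tested for a sample far from the others (each gene in both genotypes, for RPM and for fold enrichment), 1 was picked out, and chance alone picks about 1 in 20. The fold enrichment at the Peg3 germline region was 15.28 in Aid+/+ iPS replicate 1, against 11.07 to 11.73 in the other 3 Aid+/+ clones, a gap of 0.843 of the range of the group. The RPM (tags per 1000000 filtered tags) of the same clone at Peg3 was 25.8, inside the range of 21.3 to 33.5 of its group.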

How the results depend on the processing

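Of 357 recomputed values, 297 kept their direction and side of the threshold. The count of germline regions called in MEFs was 6, and leaving out 1 sample gave 4 to 7. It was 3 with limma on fold enrichment, 4 with 0 tags entered for missing peaks and 7 with peak length as an offset. In those 3 fits 32.8%, 40.3% and 28.5% of all regions were called. With filtered tags it was 8, all lower. None was called between genotypes or in ES cells under any alternative. Window regions with a peak in all samples of one group and none of the other numbered 1 for MEFs, 4 under the stricter peak threshold of 1e-10 and 2 with the same number of peaks in every sample. Without 1 sample in turn they numbered 1 to 4 for MEFs (4 without Aid+/+ iPS replicate 1 or MEF replicate 2, 2 without MEF replicate 1), 0 to 1 for genotypes (1 without Aid-/- iPS replicate 4) and 0 to 1 for ES cells (1 without Aid+/+ iPS replicate 1 or ES replicate 2). The mean number of window peaks in Aid-/- cells was 24.8, and 28.8 with 10 kb flanks.

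With filtered tags as library size the log2 change in MEFs turned negative at Peg3 (-0.82), Mest (-0.86), Peg10 (-0.62), Plagl1 (-0.55), Grb10 (-0.054), Kcnq1ot1 (-1.04), Igf2r (-0.48), Nnat (-1.19) and the last exon of Peg3 (-0.85), and in ES cells at Igf2r (-0.11) and its exon (-0.48). With peak length as an offset, Snrpn in MEFs was 0.41, the Mest intron between genotypes 0.036, the Igf2r 3′ exons in MEFs 0.13 and the last exon of Peg3 in ES cells 1.03. With limma, Snrpn in MEFs was 0.14, the Igf2r exon in ES cells -0.59 and the last exon of Peg3 in ES cells 0.62. With the clone series as a block the Mest intron was 0.017. Leaving out 1 sample, Nnat in MEFs ranged from -0.13 (without Aid+/+ iPS replicate 4) to 0.29, the Peg10 3′ exons in ES cells from -0.61 to 0.18 (without ES replicate 2), and the Igf2r exon in ES cells from -0.30 to 0.37 (negative without Aid+/+ iPS replicate 1 or ES replicate 3). The causes were not tested beyond what each setting changes.

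The Igf2r 3′ exons in MEFs were called with DESeq2 (adjusted p = 0.0369) and without Aid+/+ iPS replicate 1. No paired analysis was possible because the replicate numbers only name the samples, and the block used was the clone series. Depth limits the calls, since a peak needed at least 10 to 16 tags.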
